A study of Homo sapiens with 4 samples.

Results

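The 9 genes *GRHL1*, *GRHL2*, *GRHL3*, *OVOL1*, *OVOL2*, *EHF*, *ELF3*, *TP63* and *KLF5* encode transcription factors of epithelial identity. They were taken by symbol from the 16811 genes of the table, and all 9 had a row with a value above 0 in each library. The RNA came from MCF12A, a line of human mammary epithelium that does not form tumours, and was sequenced after poly(A) selection as 2 libraries of wild-type cells (genotype Wild type) and 2 of edited cells (genotype C1orf132 KO). In the edited cells CRISPR/Cas9 had removed the p2 promoter of *C1orf132*, the host gene of miR-29b2 and miR-29c, and both groups grew in the same serum medium with EGF, hydrocortisone, cholera toxin and insulin. Edited colonies were raised from single sorted cells expressing GFP, and which colony was sequenced is not given in the sources used here, so the edited libraries may stand for 1 clone. The transcript of *C1orf132* was not analysed here, so the labels alone give the groups. Pairs of values below give replicate 1 before replicate 2.

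Epithelial cells keep their junctions and polarity through a small set of factors that act on each other and on shared target genes. Grainyhead-like (GRHL) factors bind enhancers of junction genes and hold *ZEB1* down, and OVOL zinc finger proteins repress *ZEB1* and other mesenchymal genes. EHF and ELF3 are ETS factors found mainly in epithelia, p63 (the product of *TP63*) sets up basal and stratified epithelium, and KLF5 is a Krüppel-like factor of proliferating epithelium. In the mammary gland p63 marks the basal layer, while ELF3 and EHF are also made by luminal cells.

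The deposited signal is scaled per transcript length and across libraries, so levels of different genes may be compared. The signal is not a read count. The depth was estimated from the commonest ratio between libraries among genes with a mean value under 1, and against the first edited library it came to 1.121 for the second, with 0.93 and 1.002 for the wild-type pair. The 0.93 of wild-type replicate 1 is the least certain, since 15 of 434 low genes held that ratio and 12 the next one. For a 1 kb transcript, 1 read was worth about 0.102 to 0.123, from 8 of 47 low genes with a single transcript, so the read numbers below are estimates and their intervals take in counting error alone, since the reads carry no molecular identifiers and may be copies of 1 molecule. Differences are edited minus wild-type on log2(value + 1) from limma with Benjamini-Hochberg adjustment over all genes of the fit. This scale understates the change of low genes. Genes whose mean reached 10 (9590 genes, 5 of the 9 factors) were fitted together, and *GRHL1*, *GRHL3*, *OVOL1* and *OVOL2*, whose means were lower, were read from the same fit over all 16811 genes. With 2 libraries a group, the smallest p of an exact two-sided permutation test is 0.333, and the test of a gene therefore leans on the variance that limma borrows from other genes. The replicates are termed biological, nothing further says that they were separate cultures, and the p-values measure the spread between these libraries.

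All 9 factors were lower in the edited libraries, to unequal degrees. In the fit of all 16811 genes without a filter, 6 of the 9 passed an adjusted p of 0.05 (limma) and all of these were lower, against 3.40% of all genes called lower. Of these 6, *GRHL1*, *GRHL2*, *OVOL1*, *EHF* and *ELF3* kept under 10% of their wild-type mean and are called silenced here, against 1.12% of all genes that were called lower and kept under 10%. *TP63* was lowered to 16.9%. *OVOL2*, *GRHL3* and *KLF5* did not pass the threshold, with 8.03%, 36.3% and 61.9% of the wild-type mean. In all 9 genes both edited libraries lay below both wild-type libraries, as they did in 30.2% of all genes. The median difference over the 9 factors was -2.65, beside 0.01 for all genes and 0.09 for genes whose mean reached 10. No factor passed an adjusted p of 0.001 (limma). In the fit without a filter, 8 of 9 factors had an unadjusted p under 0.05 (limma), beside 4909 of all 16811 genes.

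**Figure D1:**
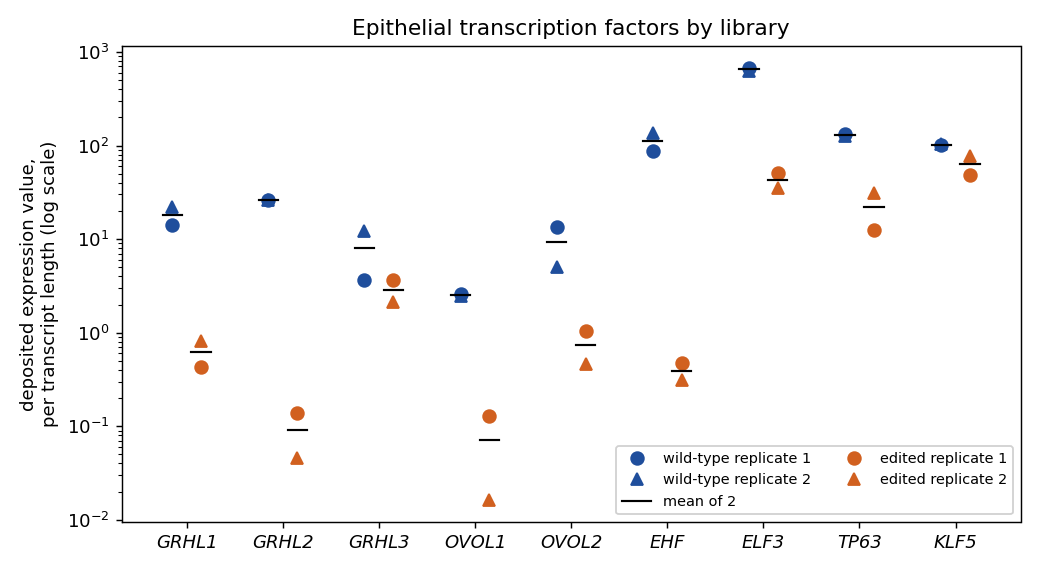
Deposited value per transcript length of each factor (y axis, log scale) in the 2 wild-type (blue) and 2 edited (orange) libraries, with circles for replicate 1, triangles for replicate 2 and a bar for the mean. *EHF* and *GRHL2* fell from 111 and 26.1 to under 1, whereas the *KLF5* points stayed between 49.0 and 103 and a *GRHL3* point of each group nearly coincided.

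To show the regulatory sequence beside these levels, promoter windows from 250 bases before to 50 bases after an annotated start were taken from RefSeq on GRCh38.p14, the build that the submitters' processing notes name (hg38). Windows were found for 6 of the 9 factors, and *GRHL2*, *OVOL1* and *OVOL2* had none. Printed below are a window of 3 silenced factors and of *KLF5*, which kept 61.9%, all on the plus strand, at chr2:9951443-9951742 (*GRHL1*), chr1:202010337-202010636 (*ELF3*), chr11:34624007-34624306 (the first of 2 windows of *EHF*) and chr13:73058755-73059054 (the second of 2 windows of *KLF5*). Capitals mark CpG dinucleotides.
GRHL1: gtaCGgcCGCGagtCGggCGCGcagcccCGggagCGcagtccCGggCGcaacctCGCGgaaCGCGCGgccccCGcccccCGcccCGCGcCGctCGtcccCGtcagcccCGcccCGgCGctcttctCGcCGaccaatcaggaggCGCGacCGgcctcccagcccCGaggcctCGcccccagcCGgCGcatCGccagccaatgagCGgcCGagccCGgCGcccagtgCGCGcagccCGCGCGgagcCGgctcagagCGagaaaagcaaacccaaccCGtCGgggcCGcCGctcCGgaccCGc
ELF3: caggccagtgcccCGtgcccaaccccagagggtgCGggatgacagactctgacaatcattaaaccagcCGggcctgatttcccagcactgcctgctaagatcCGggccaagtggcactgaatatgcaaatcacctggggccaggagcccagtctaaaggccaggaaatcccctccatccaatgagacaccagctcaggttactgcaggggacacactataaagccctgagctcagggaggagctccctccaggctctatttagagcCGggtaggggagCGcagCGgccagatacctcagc
EHF: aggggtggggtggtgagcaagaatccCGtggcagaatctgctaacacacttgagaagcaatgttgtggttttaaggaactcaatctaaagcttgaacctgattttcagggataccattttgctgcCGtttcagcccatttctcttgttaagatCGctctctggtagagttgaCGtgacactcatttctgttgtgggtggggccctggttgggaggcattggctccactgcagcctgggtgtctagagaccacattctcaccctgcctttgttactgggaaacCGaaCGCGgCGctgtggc
KLF5: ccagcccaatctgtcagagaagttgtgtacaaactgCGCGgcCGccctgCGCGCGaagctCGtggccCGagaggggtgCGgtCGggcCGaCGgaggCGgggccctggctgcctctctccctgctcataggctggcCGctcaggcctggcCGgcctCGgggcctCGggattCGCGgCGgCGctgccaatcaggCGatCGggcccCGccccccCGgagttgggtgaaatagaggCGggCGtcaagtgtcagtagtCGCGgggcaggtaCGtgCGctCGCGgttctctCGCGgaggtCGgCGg

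The windows of the silenced factors were unlike each other in CpG content. The *GRHL1* window held 52 CpG dinucleotides at 79.7% GC, an observed to expected ratio of 1.13, and the *KLF5* window held 37 at 71.3% GC (ratio 0.98). The *ELF3* window held 7 at 59.0% GC (ratio 0.27), and the *EHF* window held 8 at 51.3% GC (ratio 0.41). The median ratio of all 35116 windows was 0.58. The *GRHL1* ratio was thus above that of *KLF5*, and those of *ELF3* and *EHF* were below the median. The only *TP63* window, at chr3:189631139-189631438, had a ratio of 0.49, and which *TP63* start these cells use was not determined. The first window of *KLF5*, not printed, held 4 at 40.7% GC (ratio 0.33) and the second of *EHF* 3 at 48.3% GC (ratio 0.17), so the order of *KLF5* among these factors depends on the window taken. On both strands, the E-box CAGGTG that ZEB and SNAI factors bind was matched once in the *ELF3* window and at 2 places in the first window of *GRHL3*, and in 20.6% of all windows. The GC box GGGCGG was matched at 3 places in the *GRHL1* window, 2 in the printed *KLF5* window and 1 in the first *GRHL3* window, and in 45% of all windows. The letters AACCGGTT (GRHL), CCGTTA (OVOL) and CCGGAA (ETS) were in none of the 9 windows of the 6 factors and in 0.134%, 3.07% and 17.2% of all windows. A match of letters is a description and not a binding site.

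The GRHL genes encode the DNA-binding factors that hold junction genes open in epithelium. *GRHL2* measured 26.1 and 26.2 in wild-type cells but 0.137 and 0.0460 in edited cells. Its wild-type replicates were almost equal, and both edited libraries were near the detection limit, with 6.31 and 2.37 estimated reads against 1112 and 1204. The edited mean was 0.351% of the wild-type mean (95% interval 0.162% to 0.673%, exact binomial on the estimated reads). The log2 difference was -4.64 (standard error 0.37, 95% interval -5.55 to -3.72, adjusted p = 0.00653 from limma). *GRHL2* passed the filter on low values through its wild-type libraries alone, and in the fit without a filter it was called as well.

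*GRHL1*, the paralog of GRHL2 best known from epidermis and desmosomes, measured 14.3 and 22.1 in wild-type cells but 0.429 and 0.823 in edited cells. The groups were far apart, and the edited mean of 0.626 ± 0.279 (SD, n = 2) was 3.45% of the wild-type mean of 18.2 ± 5.53 (SD, n = 2). The log2 difference was -3.54 (standard error 0.30, adjusted p = 0.0138 from limma). Its CpG-rich promoter is the *GRHL1* sequence printed above.

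*GRHL3*, which acts in epidermal barrier formation and wound closure, was not called, and its contrast with *GRHL1* and *GRHL2* was not tested. It measured 3.67 and 12.3 in wild-type cells and 3.64 and 2.14 in edited cells, so that edited replicate 1 and wild-type replicate 1 were nearly level. The difference of -1.04 did not pass the threshold (95% interval -2.41 to 0.32, adjusted p = 0.261 from limma). It rested on wild-type replicate 2, without which it was -0.29. With 60 to 91 estimated reads in each edited library, *GRHL3* was still detected there.

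The family differed in make-up as well as in sum. The summed GRHL value was 43.97 and 60.5 in wild-type cells and 4.21 and 3.01 in edited cells. *GRHL2* made up 59.2% and 43.3% of that sum in wild-type cells but 3.27% and 1.53% of it in edited cells. *GRHL3* made up 8.35% and 20.3% in wild-type and 86.5% and 71.1% in edited cells. These shares did not overlap between the groups, with an exact two-sided permutation p of 0.333, the smallest that 2 against 2 libraries can give.

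**Figure D2:**
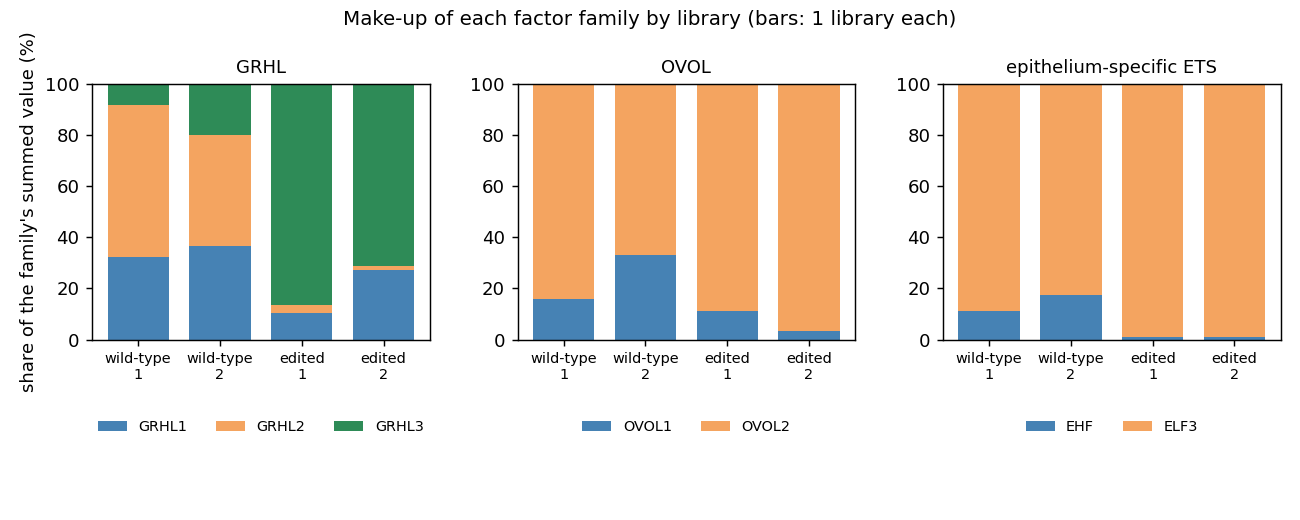
Share of each gene in the summed value of its family (y axis, percent), with 1 stacked bar per library for the GRHL, OVOL and epithelium-specific ETS factors. *GRHL3* is the smallest part of the wild-type GRHL bars (8.35% and 20.3%) and the largest of the edited ones (86.5% and 71.1%), and *ELF3* holds 99.1% of both edited ETS bars.

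OVOL zinc finger factors repress mesenchymal genes, and *OVOL1* had the lowest wild-type level of the 9. *OVOL1* measured 2.57 and 2.46 in wild-type cells but 0.128 and 0.0163 in edited cells. Its wild-type replicates were close, with 63 and 65 estimated reads, and edited replicate 2 held less than 1 (0.478, against 3.35 in edited replicate 1). It kept 2.86% of the wild-type mean, with a counting interval of 0.77% to 7.53%. Its log2 difference of -1.72 (standard error 0.26, adjusted p = 0.0371 from limma) is small for such a ratio because of the value of 1 added before the logarithm, and it was -4.01 with 0.1 added, where the adjusted p was 0.0554.

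*OVOL2*, an OVOL factor that represses *ZEB1*, measured 13.6 and 4.98 in wild-type cells and 1.03 and 0.460 in edited cells. The wild-type replicates differed more from each other than those of *OVOL1*. The edited mean was 8.03% of the wild-type mean, and the log2 difference of -2.44 (standard error 0.48, 95% interval -3.65 to -1.23) missed the threshold with an adjusted p of 0.0547 from limma. Under other settings with all 4 libraries its adjusted p ranged from 0.0462 to 0.0771, on both sides of the threshold. The difference of *OVOL1* (-1.72) lies within the interval of *OVOL2* on this scale.

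Among the ETS factors, *EHF* fell furthest of all 9 on the log2 scale. It measured 87.1 and 134 in wild-type cells but 0.470 and 0.315 in edited cells. No other factor with such a wild-type level was left so low, and the highest edited value was 0.540% of the lowest wild-type value. The edited mean was 0.354% of the wild-type mean (log2 difference -6.30, standard error 0.29, adjusted p = 0.00183 from limma). Like *GRHL2*, *EHF* passed the filter on low values through its wild-type libraries alone. In the fit without a filter its adjusted p was 0.0045 (limma). By wild-type mean *EHF* exceeded 88.1% of all genes in the table, and by edited mean 1.70%.

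*ELF3*, the most abundant of the 9, measured 681 and 633 in wild-type cells and 50.7 and 35.1 in edited cells. The groups did not overlap, and the edited mean of 42.9 ± 11.03 (SD, n = 2) was 6.52% of the wild-type mean of 657 ± 34.2 (SD, n = 2). The log2 difference was -3.93 (standard error 0.24, adjusted p = 0.00328 from limma). By the rule of 10% it counts as silenced, yet its residual level was above the wild-type level of *GRHL2* (26.1) and exceeded 72.2% of all genes in the edited libraries. *EHF* gave 11.3% and 17.5% of the summed value of this pair in wild-type cells but 0.920% and 0.889% of it in edited cells.

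*TP63* encodes the basal lineage factor, and its value sums the isoforms with and without the transactivation domain, which the table does not separate. It measured 134 and 126 in wild-type cells and 12.6 and 31.2 in edited cells. The wild-type replicates were close, and the edited ones differed by more than the wild-type ones, with 547 and 1519 estimated reads. The edited mean was 16.9% of the wild-type mean, with a log2 difference of -2.65 (standard error 0.41, adjusted p = 0.0284 from limma). Leaving out edited replicate 1 gave -2.02, and leaving out edited replicate 2 gave -3.27.

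*KLF5* was the best kept of the 9. It measured 102 and 103 in wild-type cells and 49.0 and 77.6 in edited cells, so the groups did not overlap but the edited replicates lay far apart. The edited mean was 61.9% of the wild-type mean. The log2 difference of -0.72 (standard error 0.26, 95% interval -1.37 to -0.07) did not pass the threshold, with an adjusted p of 0.128 from limma. Without edited replicate 2 it was -1.05 and passed (adjusted p = 0.0365), and without edited replicate 1 it was -0.39. *KLF5* lies on chromosome 13, where the median difference of 146 tested genes was -0.27 (0.09 over all tested genes), and the part of that shift in its value was not tested.

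**Figure D3:**
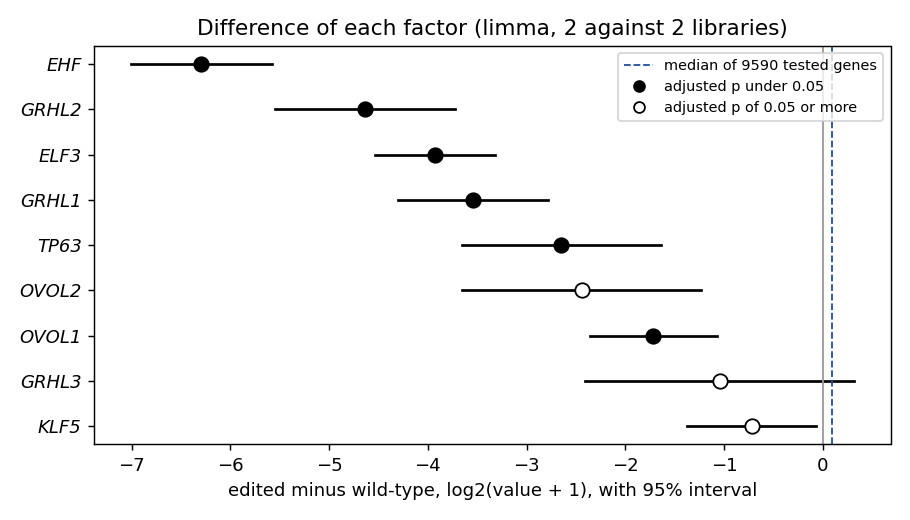
Difference between edited and wild-type cells on log2(value + 1) (x axis) for each factor with its 95% interval from limma, with filled points for an adjusted p under 0.05 and a dashed line at the median of the tested genes. The intervals of *EHF*, *GRHL2*, *ELF3*, *GRHL1*, *TP63* and *OVOL1* end at or below -1.07. That of *OVOL2*, which was not called, ends at -1.23, that of *KLF5* reaches -0.07 and that of *GRHL3* crosses 0.

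The order by percent of the wild-type mean was *GRHL2* and *EHF* (0.351% and 0.354%), *OVOL1* and *GRHL1* (2.86% and 3.45%), *ELF3* (6.52%), *OVOL2* (8.03%), *TP63* (16.9%), *GRHL3* (36.3%) and *KLF5* (61.9%). Neighbours in this order were not separated by their spread in several places. The lowest and highest ratios of an edited to a wild-type library were 0.176% and 0.528% for *GRHL2* and 0.234% and 0.540% for *EHF*, and 0.632% and 5.18% for *OVOL1* and 1.94% and 5.78% for *GRHL1*. Those of *OVOL2* (3.39% to 20.7%) covered all of the *ELF3* range (5.15% to 8.003%) and reached into that of *TP63* (9.39% to 24.8%). The range of *KLF5* (47.6% to 76.2%) lay above all ranges but that of *GRHL3* (17.5% to 99.1%).

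All 9 differences kept their sign with any library left out. Each of the 6 calls was lost when wild-type replicate 2 was left out, in a fit that takes the lone wild-type library to vary like the others. The adjusted p was then 0.068 for *EHF*, 0.0681 for *ELF3*, 0.101 for *GRHL2*, 0.175 for *TP63*, 0.179 for *GRHL1* and 0.219 for *OVOL1*. Without wild-type replicate 1, *EHF* and *ELF3* passed, and the adjusted p was 0.0817 for *GRHL2*, 0.10 for *TP63*, 0.107 for *GRHL1* and 0.129 for *OVOL1*. Without edited replicate 1 it was 0.0742 for *GRHL1* and 0.139 for *OVOL1*, and without edited replicate 2 it was 0.0899 for *OVOL1*.

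*ZEB1* and *ZEB2* encode repressors that oppose the GRHL and OVOL factors. *ZEB1* measured 0.333 and 0.927 in wild-type cells and 5.83 and 6.80 in edited cells, and it rose by 2.19 (adjusted p = 0.0307 from limma, all genes). *ZEB2* measured 0.299 and 0.457 in wild-type cells and 2.21 and 4.36 in edited cells, without passing the threshold (1.59, adjusted p = 0.0604). Both stayed under the wild-type levels of *GRHL1* and *GRHL2* on the length-scaled values. Of 13 EMT-inducing factors that could be analysed, 7 had a mean of at least 10. Of these, 1 rose and 0 fell, with a median difference of 0.35, beside 2.89% of all tested genes that were called higher and 4.20% called lower. The one that rose was *TWIST2*, a basic helix-loop-helix factor (17.9 and 18.3 in edited, 6.92 and 3.77 in wild-type libraries, 1.64, adjusted p = 0.0447 from limma). *TWIST2* passed the filter through its edited libraries alone. Without the filter 2 of 13 were called higher and 0 lower, beside 224 and 571 of all 16811 genes. *SNAI2*, which basal mammary cells also make, measured 68.5 and 55 in wild-type cells and 43.5 and 57.0 in edited cells (adjusted p = 0.391), and it was named after its values were seen.

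Genes listed as bound by GRHL factors fell widely. This list, like the others here, was written from general knowledge with earlier results of these data known. Its share of lower genes is therefore a description, and binding was not tested. In the fit without a filter, 16 of the 24 genes analysed fell (66.7%, beside 3.40% of all genes) and 0 rose, with a median difference of -2.56. With the filter it was 17 of 23, but 14 of these 23 genes had an edited mean under 10 and passed the filter through their wild-type level. *TMPRSS4*, a membrane serine protease gene, fell by 7.48 on the log2 scale, and *RAB25*, an epithelial Rab GTPase gene, fell by 7.15, from 477 and 374 in wild-type cells to 4.62 and 0.589 in edited cells. *CDH1*, the E-cadherin gene, measured 150 and 123 in wild-type cells and 3.89 and 1.54 in edited cells (-5.28, adjusted p = 0.00328 from limma). *ESRP1*, an epithelial splicing regulator, kept 1.42% of the wild-type mean, and *ST14* and *PRSS8*, which encode the proteases matriptase and prostasin, kept 1.14% and 1.24%. Other genes of the list did not pass. *PKP3*, a desmosomal plakophilin gene, kept 97.3%, and *ESRP2* was at 158% of the wild-type mean (adjusted p = 0.898 and 0.174). With the filter, the count of lower genes was 5 when wild-type replicate 1 was left out and 1 when wild-type replicate 2 was.

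Genes listed as bound by p63 fell in part. This list, chosen in the same way, shares some genes, such as *SFN*, with the GRHL list. In the fit without a filter, 12 of the 32 genes analysed fell (37.5%, beside 3.40% of all genes) and 0 rose, with a median difference of -1.45. With the filter it was 13 of 27 (48.1%, beside 4.20%), and 3 of these 27 genes had an edited mean under 10. *KRT6B*, a stress keratin gene, fell by 4.37 and *GPX2*, a glutathione peroxidase gene, fell by 3.97. The desmosomal cadherin gene *DSG3* kept 8.19% and the P-cadherin gene *CDH3* 16.6% of the wild-type mean. The keratin pair of the basal layer was spread widely between wild-type replicates. *KRT5* measured 4590 and 11910 in wild-type cells and 3514 and 3056 in edited cells, and *KRT14* 585 and 1880 against 80.3 and 190, neither passing (adjusted p = 0.146 and 0.0512 from limma). *ITGA6*, an integrin gene of hemidesmosomes, measured 206 and 188 in wild-type cells and 101 and 261 in edited cells (adjusted p = 0.700 from limma). Its edited mean of 91.7% of wild-type thus averages 1 library below and 1 above both wild-type libraries. With the filter, the count of lower genes depended strongly on which library was left out, and its range is given in the last section.

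**Figure D4:**
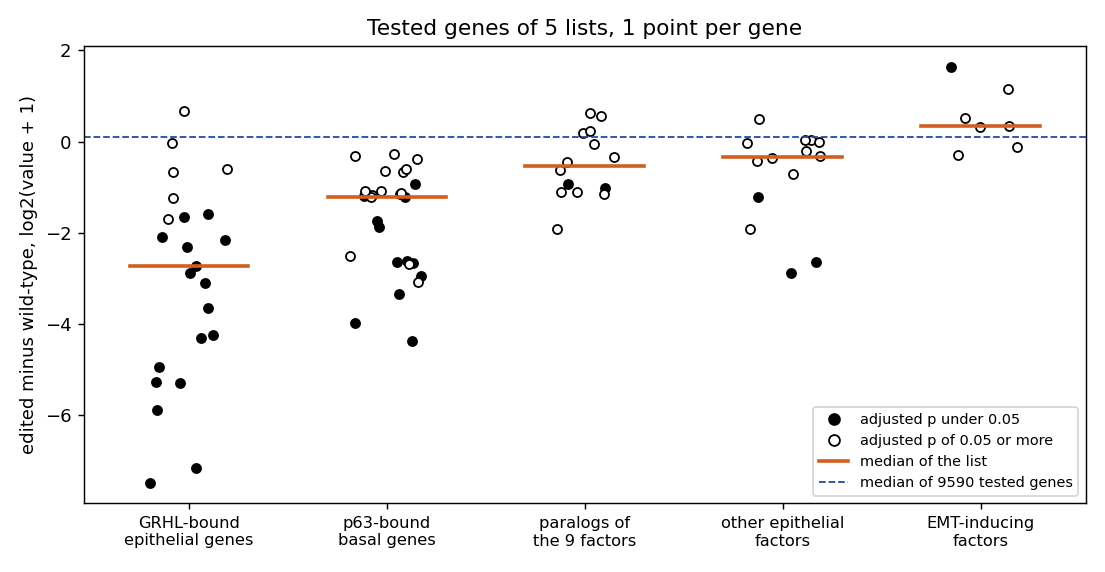
Difference between edited and wild-type cells on log2(value + 1) (y axis) for each tested gene of 5 lists, filled where the adjusted p is under 0.05, with orange bars for list medians and a dashed line for the median of all tested genes. GRHL-bound genes reach down to -7.48 around a median of -2.74, whereas the paralogs and the other epithelial factors have medians of -0.54 and -0.34.

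Among relatives of the 9 factors, 2 of 14 tested paralogs fell (14.3%, beside 4.20% of all tested genes) and 0 rose, with a median difference of -0.54. Without the filter 2 of 18 were called lower (11.1%, beside 3.40% of all genes). *KLF13* fell by 1.02 (26.3 and 28.5 in edited, 55.9 and 56.9 in wild-type libraries) and *ELF1*, an ETS factor of wide expression, fell by 0.94 (22.9 and 28.4 against 49.6 and 50.3). *TFCP2* and *UBP1*, broadly expressed relatives of the GRHL genes, were at 115% and 150% of the wild-type mean without passing the threshold (adjusted p = 0.507 and 0.0919 from limma). *KLF4*, a factor of differentiating epithelium whose mean was under 10, measured 10.2 and 12.0 in wild-type cells and 2.13 and 2.91 in edited cells (-1.79, adjusted p = 0.0313 from limma, all genes). *KLF4* thus passed the threshold where *KLF5* did not, and the difference between them was not tested. Relatives other than *KLF13* and *ELF1* were named after their values were seen.

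Of 14 tested genes among other epithelial and keratinocyte factors, 3 fell (21.4%, beside 4.20% of all tested genes) and 0 rose, with a median difference of -0.34. Without the filter 3 of 21 were called lower (14.3%, beside 3.40% of all genes). Those that fell included *HES2*, a HES family gene (16.1 and 18.4 in edited, 142 and 124 in wild-type libraries, -2.88) and *TRIM29* (-1.21). The list shares some genes, such as *TRIM29*, with the p63 list, and *TRIM29* is also among the basal markers below. *TFAP2A*, an AP-2 factor of ectoderm and mammary epithelium, measured 96.3 and 86.4 in wild-type cells and 107 and 80.8 in edited cells (0.03, adjusted p = 0.935). *TRPS1* kept 98.7% and *IRX4* was at 103% of the wild-type mean. These 3 genes and *TRIM29* were named after their values were seen.

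As a check of the labelled cell type, the basal keratins *KRT5* and *KRT14* and the luminal keratins *KRT7*, *KRT8* and *KRT18* were present in every library. The luminal keratin *KRT19* measured 2.70 and 6.42 in wild-type cells but 0.471 in edited replicate 1, and it was listed at 0 in edited replicate 2. All 15 basal mammary markers, many of them also in the p63 list, were tested, and 4 fell (26.7%, beside 4.20% of all tested genes) and 0 rose, among them *CDH3* (-2.61) and *KRT17* (-2.37). Without the filter 3 of 15 were called lower (20.0%, beside 3.40% of all genes). Their summed value was 6480 to 10200 in edited and 18000 to 27400 in wild-type libraries. Of 6 tested luminal markers, *KRT8* rose by 1.01 and *EPCAM* fell by 2.31, beside 2.89% and 4.20% of all tested genes called higher and lower. *EPCAM* passed the filter through its wild-type level (mean 42.7, edited 7.61). In the fit without a filter 0 of 9 were called lower and 1 higher, beside 3.40% of all genes called lower. The summed value of these 9 was 4330 to 4660 in edited and 1980 to 4780 in wild-type libraries. *KRT7* alone gave 3584 and 3842 in edited and 4100 and 1538 in wild-type libraries. Of 16 fibroblast markers 8 were analysed, with a summed value of 2630 to 6200 in edited and 1010 to 1450 in wild-type libraries. *FN1* alone gave 171 and 3735 in edited and 645 and 314 in wild-type libraries (adjusted p = 0.707 from limma). *S100A4* and *VIM* rose (2.38 and 2.16), and *COL1A1*, a defining fibroblast collagen, fell from 15.6 and 28.1 to 3.19 and 5.58. *COL1A1* passed the filter through its wild-type level. Without the filter 1 of 8 was called lower and 2 higher, beside 571 and 224 of all 16811 genes. Of 9 immune markers 3 were analysed, with a summed value of 42 to 60 in edited and 71.2 to 88.8 in wild-type libraries. *ITGAM* fell by 3.87, and it passed the filter through its wild-type level (mean 29.0, edited 0.983). Without the filter 1 of these 3 was called lower (33.3%, beside 3.40% of all genes). None of 8 endothelial markers was analysed. In bulk RNA, fewer cells that express a factor and less of its RNA per cell cannot be told apart, and the part of cell makeup in these differences was not tested.

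Neighbours on the chromosome were called at about the rate of all genes. Within 1 Mb of the 9 factors, by RefSeq positions on GRCh38.p14, 148 other genes were tested, of which 8 were called lower and 4 higher, with a median difference of 0.14, beside 4.20% and 2.89% of all tested genes called lower and higher. *RNPEP*, an aminopeptidase gene at -4.44 kb from *ELF3* (chromosome 1, 202010587 to 202017183), differed by -0.18 (adjusted p = 0.595 from limma). *TAF1B*, at -17.3 kb from *GRHL1* (chromosome 2, 9951693 to 10002277), differed by 0.27 (adjusted p = 0.367). None of 7 tested genes around *GRHL2* (chromosome 8, 101492439 to 101681200) passed, nor any of 8 around *OVOL2* (chromosome 20, 18024152 to 18059188) or 4 around *KLF5* (chromosome 13, 73054976 to 73077538). Of 13 around *GRHL1*, 2 were called higher and 0 lower, namely *ODC1*, the ornithine decarboxylase gene (2.78, adjusted p = 0.0199 from limma), and *HPCAL1* (1.36, adjusted p = 0.0347). Of 10 around *EHF* (chromosome 11, 34621093 to 34663288), 1 was called higher and 0 lower. Of 20 around *GRHL3* (chromosome 1, 24319357 to 24364482), 1 was called lower and 1 higher, and of 65 around *OVOL1* (chromosome 11, 65787063 to 65797214), 3 were called lower and 0 higher. The nearest tested gene to *TP63* (chromosome 3, 189596746 to 189897276) was *P3H2*, which encodes a collagen prolyl hydroxylase and lies at 59.5 kb. It fell by 2.34 (adjusted p = 0.00995 from limma), beside the -2.65 of *TP63*, and the 4 tested genes there had a median of -1.80. *CLDN1*, at 408 kb, differed by -2.78 without passing the threshold (adjusted p = 0.137 from limma). Of the 3 genes lower around *ELF3*, *LAD1* and *PKP1*, which encode proteins of the basement membrane zone and the desmosome, fell by 5.11 and 2.94 at -611 and -678 kb. Negative distances lie towards lower coordinates. The window and these neighbours were chosen after their values were seen.

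**Figure D5:**
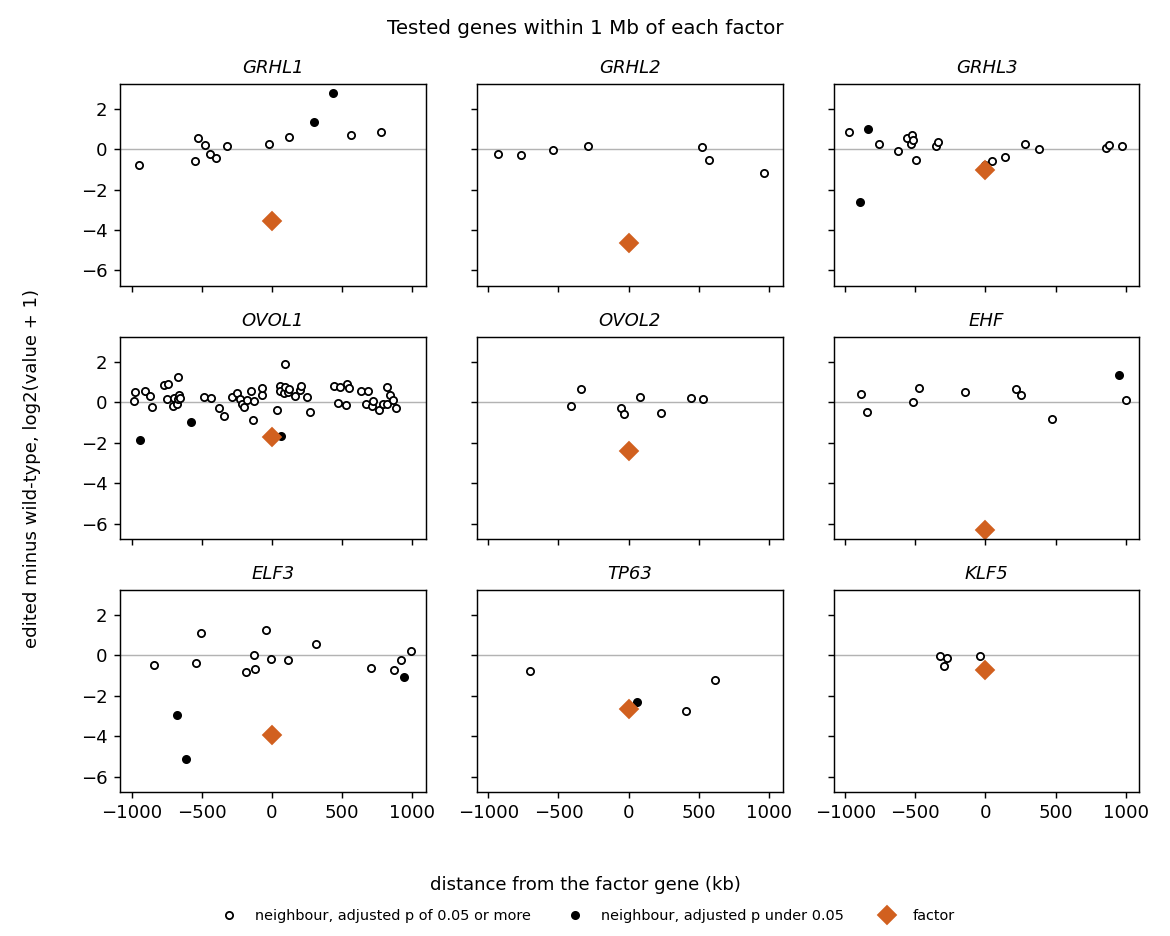
Difference between edited and wild-type cells on log2(value + 1) (y axis) against distance from the factor gene in kb (x axis, negative towards lower coordinates), 1 panel per factor, with an orange diamond for the factor and circles for tested neighbours, filled where the adjusted p is under 0.05. The diamonds of *EHF* (-6.30), *GRHL2* (-4.64) and *GRHL1* (-3.54) lie below every neighbour in their panels, while *TP63* (-2.65) lies between *P3H2* (-2.34) and *CLDN1* (-2.78, not called).

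The genes most like a factor were sought by the distance between profiles of log2(value + 1) over the 4 libraries, each centred on its wild-type mean. For *EHF*, the largest fall, these were *A2ML1* (0.86), *ESRP1* (1.08), *PROM2* (1.09), *HOXA9* (1.09) and *ITGB6* (1.35), where the distance is in log2 units. All 5 had wild-type values between 51.2 and 565 and edited values under 10. For *OVOL1*, the smallest difference that was called, the nearest 5 included *IFIH1* (0.15), *RF01976* (0.20), *SPINT2* (0.25) and *ARHGEF16* (0.25). The edited values of these 4 lay between 4.39 and 222, so that the likeness is one of differences on this scale and not of levels.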

How the data were processed

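The members and gene lists were chosen with earlier results of these data known. The 4 libraries were poly(A)-selected and read from one end over 75 bases. A signal was deposited by the authors for each gene symbol, normalized for transcript length and between libraries. This signal is not a read count. The submitters' processing notes name Salmon, HISAT2 and hg38 with no role or order, and versions and annotation are not given in the sources used here. The analysis plan had foreseen normalized counts. Low values step by amounts that depend on the gene, so reads could not be rebuilt and no count test was run.

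Groups and replicate numbers came from the sample titles. limma 3.58.1 in R 4.3.3 (lmFit, eBayes with trend) compared log2(value + 1) between groups, unblocked, with Benjamini-Hochberg adjustment over all fitted genes and a threshold of 0.05. The study used 0.001 for its RNA-seq. Genes with a mean value under 10 were read from a fit of all genes. The test was tried on simulated data. Silenced means called lower with an edited mean under 10% of wild-type.

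Named were all 9 factors, *ZEB1*, *ZEB2*, *CDH1*, up to 2 largest falls and 2 largest rises among called genes of each list, list genes described beside a factor known to bind or oppose them, and the 5 nearest profiles of 2 factors. Lists were written from general knowledge. Estimated reads used canonical transcript lengths of GENCODE 44 and a tolerance of 0.02 reads for whole steps. Promoters and positions are RefSeq's (GRCh38.p14). Python 3.11.15, numpy 2.4.6, pandas 2.3.3, scipy 1.17.1 and matplotlib 3.10.9 were used. Other pseudocounts, filters, scalings, thresholds and designs were tried, also leaving out 1 library at a time. Some genes that this rule or the lists would name are not reported here.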

Additional observations from a re-analysis of the deposited data

How the results depend on the processing

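No difference of a factor changed sign under any alternative. At an adjusted p under 0.05, 680 of 9590 genes and 6 of 9 factors passed. Of these factors, 4 were called in the fit of 9590 genes and 2 in the fit of all 16811, where 795 genes passed. With a mean value of at least 50, 419 genes and 3 of the 4 factors left passed, because fewer genes and factors were tested. At an adjusted p under 0.001, 1 gene and 0 factors passed (limma). At an unadjusted p under 0.05 it was 8 factors, drawn from the same 2 fits, beside 3095 of 9590 tested genes and 4909 of all 16811 genes (limma). With the replicate number as a block, 133 genes, 4 factors, 12 GRHL-bound and 4 p63-bound genes passed (17 and 13 without it), and *TP63* (adjusted p = 0.0644) and *OVOL1* (0.0726) were the factors lost. The numbers share no stated origin, and the deviations of same-numbered libraries correlated at -0.138 over 9590 genes. With crossed numbers, a setting chosen after seeing the data, 1002 genes and 5 factors passed. With 1 library left out, the counts ranged from 4 to 1431 genes, from 0 to 6 factors, from 1 to 19 GRHL-bound genes and from 0 to 20 p63-bound genes, and the cause was not tested. List counts under other settings were also added after seeing the data. *OVOL1* was not called with a pseudocount of 0.1 (adjusted p = 0.0554), and *OVOL2* was called with a mean of at least 1 (0.0499) and with equal library totals (0.0462). The median difference of all tested genes was 0.09, and -0.03 with equal library totals. Depth limits *OVOL1* and *GRHL2*, whose edited levels rest on under 10 estimated reads per library, and *OVOL2*, with 14 and 7.17 in the edited libraries.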
